A study of Arabidopsis thaliana with 6 samples.

Results

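The group VII ethylene response factors (ERF-VII) of *Arabidopsis* are the 5 genes HRE1 (AT1G72360), HRE2 (AT2G47520, also called ERF071), RAP2.2 (AT3G14230), RAP2.3 (AT3G16770) and RAP2.12 (AT1G53910). They were taken by gene identifier from an expression table of 33690 features, and all 5 were found. The table describes mature stems of wild-type plants (Columbia) and of the *hdt1* mutant, 3 libraries for each genotype, without any treatment. The *hdt1* plants carry a T-DNA insertion in the gene of the plant-specific histone deacetylase HDT1, in 1 of 2 lines (insertion in the 5′ untranslated region or in the third exon), and which line was sequenced is not stated. The labels give stems at 35 days after flowering, the study's methods give the T3 stage, when stems stop elongating, and the number of plants behind a library is not stated. The columns of each genotype are numbered 1, 2 and 4 whereas the labels run from 1 to 3, so a library could be tied to its genotype and not to a single labelled sample. Values given as a series of 3 are always in the order of libraries 1, 2 and 4. Nothing says that the libraries of a genotype came from separate plants, so each p-value covers the spread between these libraries and no more. The design text of the series describes the sampling as unreplicated, and the labels and the study's methods differ in growth temperature and day length. HRE2 is among the genes that the study itself selected on these samples, so its difference here is no independent evidence. The study also reports quantitative PCR of HRE2 in stems, higher in *hdt1* by a smaller log2 fold than in its sequencing.

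ERF-VII factors are the oxygen-sensitive transcription factors of flowering plants. Their proteins start with methionine and cysteine. In air, methionine aminopeptidase removes the methionine, plant cysteine oxidases (PCO) use oxygen to oxidize the exposed cysteine, arginyl transferases (ATE) add arginine, and the ubiquitin ligase PRT6 marks the protein for degradation. When oxygen or nitric oxide is low the proteins persist and switch on genes of fermentation and sugar use. RAP2.2, RAP2.3 and RAP2.12 are generally described as constitutively transcribed, whereas HRE1 and HRE2 are themselves induced by low oxygen. The abundance of the proteins is set largely after transcription, and transcripts alone were measured here.

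The start of the coding sequence carries the degron that defines the group, and it is shown here for each member. The bases are from the RefSeq annotation of the TAIR10.1 assembly, read 5′ to 3′ along the gene, with the start codon and the following cysteine codon in capitals.
HRE1: ATGTGCggaggagctgtaatttccgattac
HRE2: ATGTGTgggggagctatcatttctgatttc
RAP2.2: ATGTGTggaggagctataatctccgatttc
RAP2.3: ATGTGTggcggtgctattatttccgattat
RAP2.12: ATGTGTggaggagctataatatccgatttc
These stretches lie at chr1:27241904-27241933 on the plus strand for HRE1, chr2:19503461-19503490 on the minus strand for HRE2, and chr3:4738971-4739000 on the minus strand for RAP2.2. Those of RAP2.3 and RAP2.12 lie at chr3:5705784-5705813 and chr1:20135242-20135271, both on the plus strand. Every one lies within the first coding exon of its gene. HRE1 used TGC for the cysteine and the other members TGT. The first 5 residues were the same in all 5 proteins and occurred at the start of the proteins of no other gene among 27562 protein-coding genes, of which 290 (1.05%) had any model starting with methionine and cysteine. HRE2, RAP2.2, RAP2.3 and RAP2.12 shared the first 9 residues.

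HRE1 is annotated with a further start, used by 1 of its 3 models, which lies at chr1:27242142-27242171 and lacks the cysteine codon.
HRE1, other start: ATGtctcaaagctttgaactttatccatgg
The deposited values are 1 per gene, so the models with and without the degron cannot be told apart. Over the whole protein the members diverged. RAP2.2 (379 residues) and RAP2.12 (358 residues) were identical at 68.4% of aligned positions, HRE1 (262 residues) and HRE2 (171 residues) at 58.6%, and the most distant pair was RAP2.2 and RAP2.3 (248 residues) at 44.9%.

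The expression unit was FPKM, that is fragments scaled by gene length and by the fragments mapped, so levels of different genes can be compared. From the steps between the values, whole reads could be recovered, and they summed to between 40360349 and 45061939 per library. HDT1 (AT3G44750) had a mean of 58.5 ± 6.16 FPKM in wild-type stems and of 15.1 ± 8.75 in *hdt1* (SD, n = 3 each). In each genotype, libraries 2 and 4 resembled each other closely (r = 0.995 across genes, Pearson's correlation of log2 values). The library 1 samples of the 2 genotypes resembled each other (r = 0.977) more than the other libraries of their own genotype (0.870 to 0.900), and all remaining pairs lay between 0.853 and 0.906. This split has no name in the labels, so the differences of the 5 members, and of other genes where stated, are given for library 1 and for libraries 2 and 4 as well. HDT1 stood at 9.32% of the wild type in library 1 and at 32.9% in libraries 2 and 4 (log2 differences -3.19 and -1.55). Library 1 holds 1 sample per genotype, and the relation of this difference to those of the 5 members was not tested. The 5 stem wall markers (CESA4, CESA7, CESA8, NST1 and SND1) were above 0 in every library, and the anther gene A9 was at 0 in all 6. The 4 seed markers (CRA1, SESA4, PAP85 and OLEO1) summed to 164 and 161 FPKM for libraries 2 and 4 of the wild type, and to at most 0.146 in the other 4 libraries, with CRA1 and SESA4 at 0 in each of these. In whole stems, fewer cells of a type and less RNA per cell cannot be told apart.

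The members spanned the range from one of the most abundant transcripts of the stem to one at the limit of detection, and their order was the same in all 6 libraries. RAP2.3 was highest, followed by RAP2.2, RAP2.12, HRE1 and HRE2. The ranges of neighbours in this order did not overlap. The lowest RAP2.3 value was 2280.4 FPKM and the highest RAP2.2 value 474. The lowest RAP2.2 value of 286 lay above the highest RAP2.12 value of 207, and the lowest RAP2.12 value of 158 above the highest HRE1 value of 103. HRE1 (lowest 23.9) and HRE2 (highest 14.9) were the last pair. The medians over the 6 libraries gave the same order, with 2860 FPKM for RAP2.3, 403 for RAP2.2, 200.4 for RAP2.12, 30.7 for HRE1 and 0.0518 for HRE2. Among all features RAP2.3 ranked between 4 and 16, and it held 85.2, 88.2 and 88.4% of the summed FPKM of the 5 members in wild-type libraries 1, 2 and 4. In *hdt1* this share was 81.3, 77.0 and 76.8%. HRE1 and HRE2 together made up 0.718, 0.442 and 0.444% of the sum in the wild type and 1.22, 3.49 and 3.66% in *hdt1*.

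**Figure D1:**
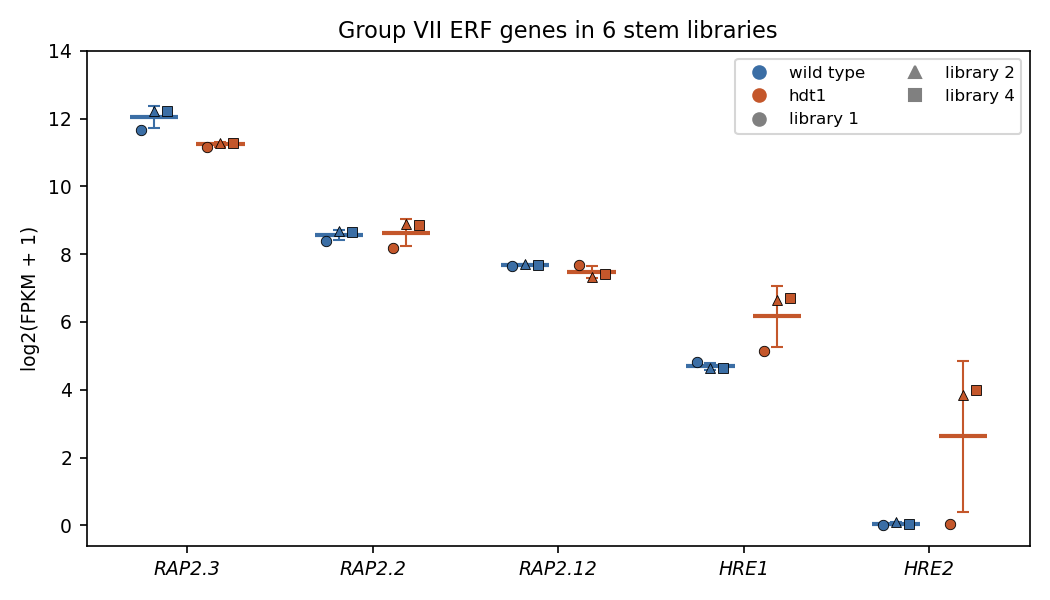
The plot gives log2(FPKM + 1) of the 5 ERF-VII genes on the y axis, with a point for each library (symbols mark the library number), a bar at the mean of a genotype and error bars of 1 SD (n = 3). RAP2.3 is highest in every library, between 2280.4 and 4781 FPKM, and HRE1 and HRE2 of *hdt1* libraries 2 and 4 stand apart from *hdt1* library 1.

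The comparison of *hdt1* with the wild type asks whether transcript levels of these oxygen-linked regulators differ in stems that lack most HDT1 transcript. HRE1 was higher and RAP2.3 lower in all 3 *hdt1* libraries than in any wild-type one, HRE2 was detected above the count limit only in 2 *hdt1* libraries, and RAP2.2 and RAP2.12 overlapped between genotypes. No member passed the main test, limma on log2(FPKM + 1) with Benjamini-Hochberg adjustment over 17906 genes, in which 0 genes (0%) were called at an adjusted p under 0.05. The smallest adjusted p of any gene was 0.0799, and 0 genes were called by voom, limma's method for counts. Before adjustment, limma gave a p under 0.05 to 1393 genes that were higher in *hdt1* and to 1068 that were lower, with HRE1 among the former and RAP2.3 among the latter. Of the 5 members, 4 passed the filter on low values (at least 1 FPKM in at least 3 libraries), and HRE2 did not.

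HRE1, an ERF-VII factor that is itself induced by low oxygen and prolongs the response, is annotated in TAIR10.1 at chromosome 1, 27241696 to 27242968, plus strand. It was measured at 27.2, 23.9 and 23.9 FPKM in the wild type against 34.1, 99.5 and 103 in *hdt1*. The wild-type libraries were close together, *hdt1* library 1 was slightly above them, and *hdt1* libraries 2 and 4 were far above. The means were 25.0 ± 1.92 and 78.9 ± 38.9 FPKM (SD, n = 3), a difference of 1.46 (SE 0.43) on the log2(FPKM + 1) scale with a limma adjusted p of 0.295. The groups did not overlap, and the exact two-sided permutation test gave p = 0.1, which is the smallest that 3 against 3 libraries can give. All *hdt1* libraries lay above all wild-type libraries for 8.5% of the genes tested and below them for 10.9%.

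The difference in HRE1 was uneven. It was 0.31 on the log2 scale in library 1 (1.25-fold) and 2.04 in libraries 2 and 4 (4.24-fold). In the latter, 8260 reads of *hdt1* stood against 1921 of the wild type, with an exact 95% interval of 4.04 to 4.46 for the ratio per sequenced read, which covers counting error only. Without *hdt1* library 1, the log2 difference was 1.98 and the limma adjusted p 0.00361. That fit called 1994 of the 17906 genes tested, against 0 in the main fit, and its 2 *hdt1* libraries are nearly alike. With the split of library 1 from libraries 2 and 4 as a further term the adjusted p was 0.0617. HRE1 overlaps the gene of a ribosomal protein on the opposite strand, AT1G72370, by 124 bp. That gene was lower in *hdt1* (479 ± 6.18 FPKM in the wild type and 340 ± 16.6 in *hdt1*, SD, n = 3), opposite to HRE1, and whether counting used strand is not stated.

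HRE2, the other ERF-VII factor induced by low oxygen, lies on chromosome 2 from 19502776 to 19503702 on the minus strand. It was measured at 0, 0.0674 and 0.0361 FPKM in the wild type against 0.0323, 13.3 and 14.9 in *hdt1*. Behind these values were 0, 2 and 1 reads in the wild type and 1, 386 and 432 reads in *hdt1*. HRE2 was thus at or below 2 reads in 4 libraries, under the 0.097 to 0.108 FPKM that 3 reads are worth, and clearly present in *hdt1* libraries 2 and 4 alone. The groups overlapped because of *hdt1* library 1, and the exact two-sided permutation test of the FPKM values gave p = 0.3 (n = 3 per genotype).

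Within libraries 2 and 4, the HRE2 reads were 818 in *hdt1* and 3 in the wild type, a ratio of 269 with an exact 95% counting interval of 91.7 to 1307. The difference was 3.84 on the log2(FPKM + 1) scale there and 0.05 in library 1, where 1 read stood against 0 and no fold can be given. HRE2 had no main test. When genes with 1 FPKM in 2 libraries were admitted, HRE2 entered only through the 2 *hdt1* libraries in which it was high, so its values in that fit are given as a description. The difference was 2.57 (SE 1.04), with a limma adjusted p of 0.359, and 0.0871 with the split as a further term. Of the 4 members tested, HRE1 alone was higher in *hdt1* by more than 1 on the log2 scale within libraries 2 and 4, as were 8.87% of the genes tested. In library 1 no member exceeded 1, against 2.22% of the genes tested. HRE2, which exceeded 1 in libraries 2 and 4, is not among the genes behind these shares.

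RAP2.3, which encodes the most abundant ERF-VII transcript and is also known as EBP and ERF72, lies on chromosome 3 from 5705541 to 5707084 on the plus strand. It was measured at 3231, 4781 and 4756 FPKM in the wild type against 2280.4, 2488 and 2476 in *hdt1*. Wild-type libraries 2 and 4 were high, wild-type library 1 lay between them and the *hdt1* libraries, and the 3 *hdt1* libraries were close together. The means were 4256 ± 888 and 2415 ± 117 FPKM (SD, n = 3), so *hdt1* stood at 56.7% of the wild type. The log2 difference was -0.80 (SE 0.27) with a limma adjusted p of 0.317, and the exact permutation test gave p = 0.1, the smallest possible.

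RAP2.3 was lower in *hdt1* within both sets of libraries, with log2 differences of -0.50 (library 1, 70.6% of the wild type) and -0.94 (libraries 2 and 4, 52.1%). With the library split as a further term, RAP2.3 was called lower (limma adjusted p = 0.0430, and 0.0285 with voom on counts). That fit called 2.52% of all genes tested as lower and 3.82% as higher, and RAP2.3 was the only 1 of 4 tested members called. Libraries 2 and 4 count as independent samples in it, close as they are. With these 2 libraries averaged the log2 difference of RAP2.3 was -0.72 and the limma adjusted p 0.822, on 2 values per genotype. That fit called 0 of the 17906 genes tested, so it cannot decide on RAP2.3. Without the split, quantile scaling brought the difference to -0.51 and median-ratio scaling to -0.73.

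RAP2.2 and RAP2.12 are the activators best known for switching on fermentation genes when oxygen falls, and RAP2.12 is held at the plasma membrane in air by acyl-CoA-binding proteins. RAP2.2 lies on chromosome 3 from 4737120 to 4739298 on the minus strand. It was measured at 336, 406 and 400.0 FPKM in the wild type against 286, 474 and 462 in *hdt1*. In both genotypes library 1 was lowest, and the *hdt1* libraries enclosed the wild-type ones. The means of 381 ± 38.7 and 408 ± 105 FPKM (SD, n = 3) differed by 0.07 on the log2 scale (SE 0.25, limma adjusted p = 0.920). The difference was -0.23 in library 1 and 0.22 in libraries 2 and 4.

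RAP2.12 lies on chromosome 1 from 20134844 to 20137013 on the plus strand. It was measured at 198, 207 and 203 FPKM in the wild type against 203, 158 and 170 in *hdt1*. Library 1 of *hdt1* fell among the wild-type libraries, and libraries 2 and 4 of *hdt1* were below all of them. The means of 203 ± 4.57 and 177 ± 23.2 FPKM (SD, n = 3) differed by -0.20 on the log2 scale (SE 0.17, limma adjusted p = 0.597). Within library 1 the difference was 0.03 and within libraries 2 and 4 it was -0.32. The exact permutation tests gave p = 0.6 for RAP2.2 and p = 0.2 for RAP2.12.

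Marker sums also differed between libraries. The stem wall markers summed to 48.1, 18.7 and 19.8 FPKM in the wild type against 107, 60.7 and 56.5 in *hdt1*, higher in *hdt1* within both sets of libraries. The 5 senescence markers summed to 410, 203 and 205 FPKM in the wild type against 367, 398 and 396 in *hdt1*. These sums differed mainly within the wild type, whereas HRE1 and HRE2 differed mainly within *hdt1*. The senescence sum was higher in *hdt1* in libraries 2 and 4 alone. The sum was carried by SAG13 and SAG12, which were higher there by more than 1 on the log2 scale, whereas NYE1 (-0.44), ORE1 (-0.94) and PAO (-0.46) were lower there and the median of the 5 was -0.44. The 6 floral and anther markers summed to between 0.400 and 2.34 FPKM in all libraries. The green tissue markers summed to 10052, 8796 and 9645 FPKM in the wild type against 9134, 6600 and 6045 in *hdt1*. Their part in the differences of the 5 members, and that of the seed markers above, was not tested. The log2 difference of RAP2.3 was -0.50 in library 1, where the seed markers summed to 0 (wild type) and 0.146 FPKM (*hdt1*). It was -0.94 in libraries 2 and 4, where these markers summed to 164 and 161 FPKM in the wild type. Library 1 holds 1 sample per genotype, and the relation of the markers to RAP2.3 was not tested.

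The enzymes that act on the ERF-VII proteins, and the related enzymes NTAN1, NTAQ1 and PRT1, were expressed in every library. The PCO enzymes are the oxygen sensors of the pathway, and PCO1 and PCO2 are also induced by low oxygen. PCO1 was measured at 2.85, 6.98 and 5.88 FPKM in the wild type against 3.29, 22.7 and 25.2 in *hdt1*, with log2 differences of 0.16 in library 1 and 1.75 in libraries 2 and 4. Like HRE1 and HRE2 it was high in *hdt1* libraries 2 and 4. PCO2 reached 0.931, 3.24 and 3.63 FPKM in the wild type against 0.875, 5.89 and 5.80 in *hdt1*. PCO5 was lower in *hdt1*, with 27.2, 33.7 and 33.0 FPKM in the wild type against 25.8, 17.9 and 17.7 in *hdt1*, and all *hdt1* libraries were below all wild-type ones (log2 difference -0.60, SE 0.20, limma adjusted p = 0.316). PCO3 and PCO4 differed by -0.14 and 0.24 on the log2 scale. No PCO gene was called, and the median log2 difference was 0.24, against -0.08 over all genes tested. At an unadjusted limma p under 0.05, 1 of 5 was lower, as were 1068 of the 17906 genes tested. Without overlap, 1 of 5 lay below the wild type, against 10.9% of all genes tested.

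The methionine aminopeptidases, which remove the first residue, were closer between the genotypes. Their 6 log2 differences ran from -0.32 in MAP2A through -0.24 in MAP2B and -0.06 in both MAP1A and MAP1D to -0.01 in MAP1B and MAP1C. Their median was -0.06, and none was called or passed an unadjusted p of 0.05. Across libraries the split was larger than the genotype difference for the organellar enzyme MAP1B, at 45.7, 12.9 and 12.1 FPKM in the wild type against 38.4, 13.7 and 13.4 in *hdt1*. For the 7 genes of amidation removal, arginylation and ubiquitin ligation the median was -0.19. The amidases NTAN1 and NTAQ1 differed by -0.05 and 0.13, the arginyl transferases ATE1 and ATE2 by 0.06 and -0.26, and BIG, which acts alongside PRT6, by -0.26. PRT6, the ligase of the arginine branch, was measured at 10.4, 14.8 and 14.4 FPKM in the wild type against 12.6, 10.9 and 10.5 in *hdt1*, with a log2 difference of -0.19 (SE 0.19). PRT1, a ligase for other N-terminal residues, differed by -0.21 on the log2 scale. It was the 1 gene of the 7 without overlap between the genotypes, and 10.9% of all genes tested lay below the wild type in this way. None of the 7 was called.

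**Figure D2:**
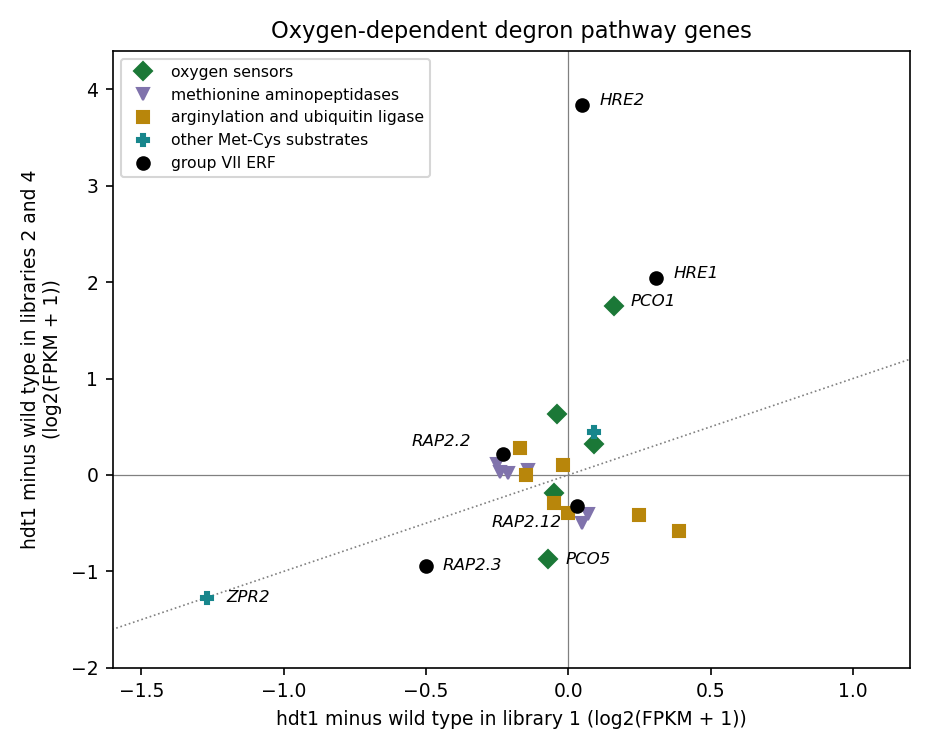
Each point is a gene of the oxygen-dependent degron pathway or 1 of the related enzymes NTAN1, NTAQ1 and PRT1. The axes give the difference of *hdt1* minus wild type in log2(FPKM + 1), in library 1 (x) and in libraries 2 and 4 (y). The dotted line marks equal differences. HRE2 (0.05 and 3.84), HRE1 (0.31 and 2.04) and PCO1 (0.16 and 1.75) lie far above the line, and ZPR2 (-1.27 and -1.28) lies on it.

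Apart from the ERF-VII factors, VRN2 and ZPR2 are the plant proteins best known to be degraded through the same methionine and cysteine start. Their coding starts are shown for comparison, again with the start and cysteine codons in capitals and from TAIR10.1. They lie at chr3:22497413-22497442 on the minus strand for ZPR2 and at chr4:9476708-9476737 on the plus strand for the VRN2 model with the cysteine.
ZPR2: ATGTGTctgacaacttcagagccaccattc
VRN2: ATGTGTaggcagaattgtcgcgcgaaatcc
They share the TGT codon with HRE2 and the RAP2 genes, whereas the following residues differ. ZPR2, a small protein that limits HD-ZIP III factors in the shoot apex, was measured at 15.1, 14.2 and 14.7 FPKM in the wild type against 5.70, 4.26 and 6.74 in *hdt1*. The groups did not overlap, and the log2 difference was -1.27 (SE 0.19), with -1.27 in library 1 and -1.28 in libraries 2 and 4. It was not called in the main test (limma adjusted p = 0.181). With the library split as a further term it was called lower (limma adjusted p = 0.0309), as were 2.52% of all genes tested. With libraries 2 and 4 averaged, that fit called 0 of the 17906 genes tested, so it cannot decide on ZPR2. VRN2, a Polycomb subunit of the vernalization response, was at 13.4, 15.7 and 15.0 FPKM in the wild type against 14.3, 21.2 and 21.3 in *hdt1* (log2 difference 0.33, SE 0.20, limma adjusted p = 0.50).

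Of 19 genes of known partners and regulators of the ERF-VII proteins, 1 was higher and 1 lower at an unadjusted limma p under 0.05. Over all 17906 genes tested these counts were 1393 and 1068. Of the 19, 0 were called, and their median log2 difference was -0.11. The 3 with the largest positive differences were HRA1, RGL3 and RGL1. HRA1, a trihelix factor that restrains RAP2.12, was low throughout, at 0.468, 3.20 and 2.19 FPKM in the wild type against 1.2, 7.39 and 5.53 in *hdt1* (log2 difference 0.87, SE 0.61). The DELLA genes RGL3 and RGL1 differed by 0.64 (SE 0.17) and 0.36 (SE 0.19), and RGL3 did not overlap between the genotypes. On the other side, MPK3, a mitogen-activated protein kinase, was measured at 233, 296 and 271 FPKM in the wild type against 199.8, 113 and 123 in *hdt1*. Its groups did not overlap, with a log2 difference of -0.91 (SE 0.26, limma adjusted p = 0.290) that was -0.22 in library 1 and -1.26 in libraries 2 and 4. The kinase gene MPK6 and the DELLA gene GAI differed by -0.28 each, and MPK6 did not overlap either. Without overlap, 1 of the 19 lay above the wild type and 2 below, against 8.5 and 10.9% of all genes tested. The acyl-CoA-binding protein genes ACBP1 and ACBP2, whose products hold RAP2.12 at the membrane, differed by -0.11 and -0.13.

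The genes that respond to low oxygen, many of them through ERF-VII factors, were mostly higher in *hdt1* in libraries 2 and 4, as HRE1 and HRE2 were. Of 31 such genes, 25 passed the filter, 0 were called in the main fit, and 4 were higher and 0 lower at an unadjusted limma p under 0.05. Over all 17906 genes tested, 1393 were higher and 1068 lower at that p. The median difference was 0.51 on the log2 scale over the 25, against -0.08 over all genes tested. It was 0.16 in library 1 and 0.65 in libraries 2 and 4. Within libraries 2 and 4, 10 of the 25 were higher in *hdt1* by more than 1, against 8.87% of all genes tested, and 21 had a positive difference, against 42.3%. In library 1 the counts were 2 and 16, against 2.22 and 45.6%. The 6 genes not kept, which were low in the other libraries, all exceeded 1 in libraries 2 and 4, which makes 16 of 31. The shares over all genes tested do not cover such genes. The list includes PCO1, PCO2 and HRA1, and without these 3 the median was 0.50. All *hdt1* libraries were above all wild-type libraries in 4 of the 25 genes and below in 0, against 8.5 and 10.9% of all genes tested. They were above in 3 of the 6 genes not kept, which these shares do not cover either.

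PDC1, a pyruvate decarboxylase of ethanol fermentation and a direct target of RAP2.12, was measured at 0.536, 0.472 and 0.414 FPKM in the wild type against 0.628, 30.6 and 29.1 in *hdt1*. It did not pass the filter, and in libraries 2 and 4 its reads numbered 5456 against 80, a ratio of 67.3 (exact 95% counting interval 54.0 to 85.0). ADH1, the alcohol dehydrogenase of the same pathway, was at 40.3, 35.5 and 34.1 FPKM in the wild type against 34.7, 67.0 and 67.2 in *hdt1*, with a log2 difference of 0.55 (SE 0.29, limma adjusted p = 0.440). As with HRE2, *hdt1* library 1 fell within or next to the wild-type range for both genes. HB1, a non-symbiotic haemoglobin that scavenges nitric oxide, had the largest positive difference of the 25 genes kept, 2.34 (SE 1.62), with 0.614, 5.33 and 4.69 FPKM in the wild type against 0.367, 67.3 and 79.6 in *hdt1*.

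SRO5 and AT4G10270 followed with 1.79 and 1.36. The negative differences among the genes kept were -0.48 in AT1G33055, -0.14 in PFK6 and -0.08 in AT4G27450. AT1G33055 and AT4G27450 were higher in *hdt1* in library 1 (0.85 and 0.86) and lower in libraries 2 and 4 (-1.15 and -0.56). The change of sign between the 2 sets of libraries was not tested.

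**Figure D3:**
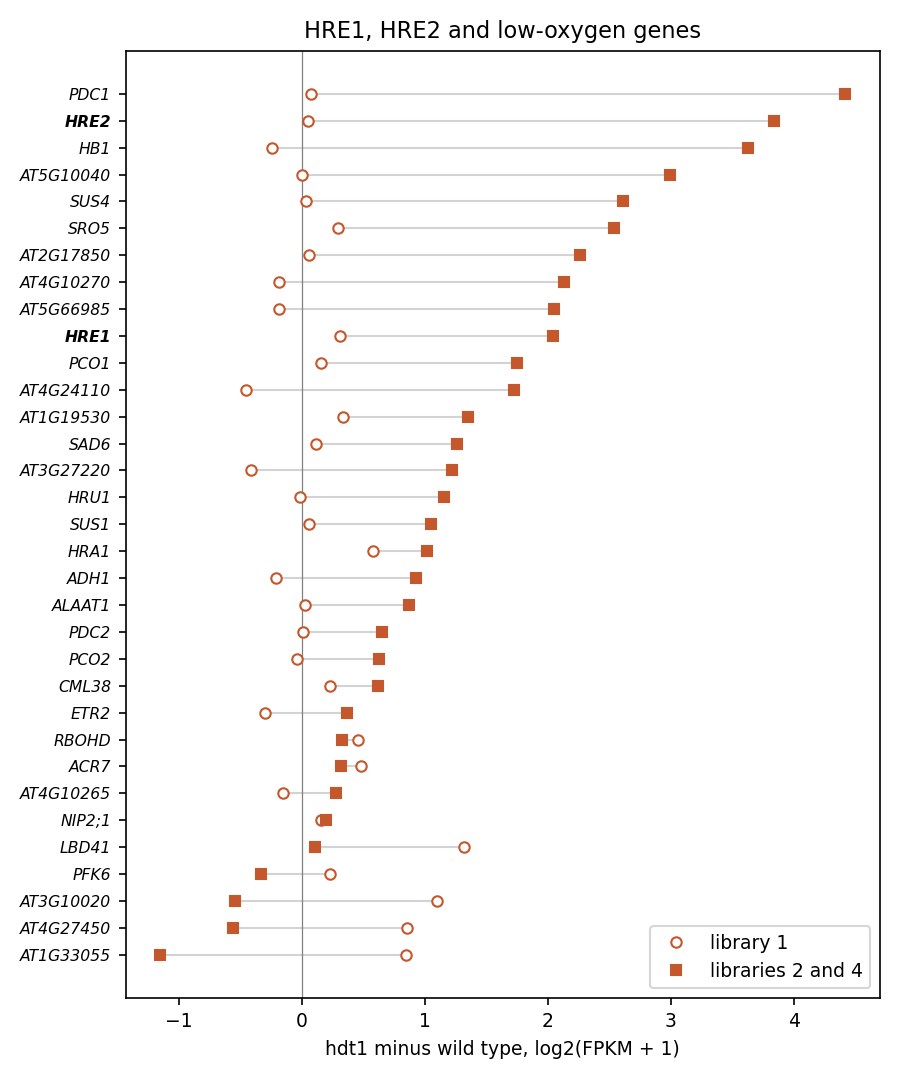
The x axis is the difference of *hdt1* minus wild type in log2(FPKM + 1) for HRE1, HRE2 (bold) and 31 low-oxygen genes, in library 1 (open circles) and in libraries 2 and 4 (filled squares). In libraries 2 and 4, 10 of the 25 genes that passed the filter exceed 1, against 8.87% of all genes tested. In library 1, 2 of the 25 do, against 2.22%. The genes that did not pass also exceed 1 in libraries 2 and 4, and these shares do not cover them. HRE1 (2.04) and HRE2 (3.84) lie in the upper part of the order.

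Among 112 genes whose proteins hold the letters of an AP2/ERF DNA-binding domain, RAP2.3 had the highest FPKM in all 6 libraries. RAP2.2 ranked between 2 and 7, RAP2.12 between 10 and 12, and HRE1 at 34, 35 and 35 in the wild type against 28, 16 and 16 in *hdt1*. HRE2 ranked between 95 and 100 in the wild type and in *hdt1* library 1, and at 48 and 47 in *hdt1* libraries 2 and 4. Of the other 107 genes, 74 passed the filter, with a median log2 difference of 0.11, and 0 were called. At an unadjusted limma p under 0.05, 12 of the 74 were higher and 3 lower, against 1393 and 1068 of the 17906 genes tested. Without overlap, 11 of the 74 lay above the wild type and 3 below, against 8.5 and 10.9% of all genes tested. With the library split as a further term 11 of the 74 were called higher and 2 lower, where 3.82 and 2.52% of all genes tested were. With libraries 2 and 4 averaged, that fit called 0 of all 17906 genes tested, so it cannot decide on the family. Among the 78 family genes tested, HRE1 ranked 12 from the highest log2 difference and RAP2.3 ranked 7 from the lowest. Within libraries 2 and 4, 19 of the other 74 were higher in *hdt1* by more than 1, against 8.87% of all genes tested. In library 1, 10 of the 74 were, against 2.22%. A stricter letter pattern, met by 40 genes with all 5 members among them, gave a median of -0.03 for the others.

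**Figure D4:**
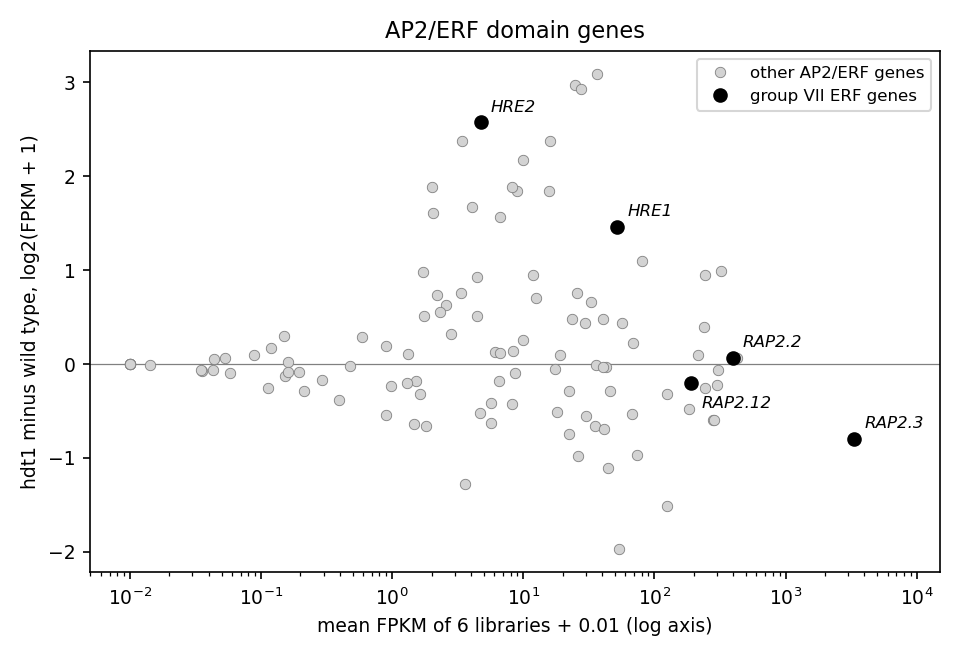
Each point is 1 of 112 AP2/ERF genes, with its mean FPKM over the 6 libraries plus 0.01 on a log x axis and the difference of *hdt1* minus wild type in log2(FPKM + 1) on the y axis, and the 5 ERF-VII genes are black. RAP2.3 (-0.80) lies farthest to the right, RAP2.2 (0.07) and RAP2.12 (-0.20) are close to 0, and HRE1 (1.46) and HRE2 (2.57) lie above most of the family.

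The genes whose levels followed each member most closely were found by Pearson's r of log2(FPKM + 1) over the 6 libraries among 18843 genes. These values describe 6 libraries of which 2 pairs are nearly alike, so high correlations arise readily, and 297 to 1028 genes exceeded 0.95 for a given member. Closest to HRE1 were AT2G31010 and the phosphatase gene PFA-DSP1 (r = 0.9994 each) and AT2G47550 (0.9993). Closest to HRE2 were AT2G18150 (0.9998), an unannotated feature and GPT2, a glucose-6-phosphate transporter of plastids (0.9996 each). AT2G47550, AT2G18150 and the unannotated feature reached 1 FPKM in *hdt1* libraries 2 and 4 alone. They entered the search only through the libraries in which HRE1 and HRE2 were high, so their correlations are given as a description. GPT2 stood at 24.3, 24.6 and 22.4 FPKM in the wild type against 23.3, 241 and 265 in *hdt1*, which is the same division of libraries as in HRE2. AT1G07080, AT2G32795 and AT4G32140 were closest to RAP2.2 (0.9965 to 0.9975). AT5G04910, AT5G22080 and NAP1;1, a nucleosome assembly protein gene, were closest to RAP2.3 (0.9966 to 0.9975), and NAP1;1 differed by -0.35 in library 1 and -0.77 in libraries 2 and 4. ACX2, an acyl-CoA oxidase of peroxisomes, AT4G13550 and AT3G27700 were closest to RAP2.12 (0.9965 to 0.9977).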

How the data were processed

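Stems of the wild type and of *hdt1*, 3 samples each, were analysed by RNA sequencing. The authors deposited FPKM values per gene and library, and the submitters' processing notes name TopHat2 2.0.12, Bowtie2 2.2.3 and HTSeq 0.6.1 without roles. Neither the genome build nor the strand setting is given in the sources used here, and the study calls its unit RPKM. Whole counts were computed from the deposited values for 25374 of the 25374 features with any signal (relative tolerance 1e-11), and 581 genes were scaled by a common factor, so totals depend on that rule.

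Genes reaching 1 FPKM in 3 or more libraries were kept. Their log2(FPKM + 1) values entered limma 3.58.1 (R 4.3.3, empirical Bayes with trend), and p-values were adjusted by Benjamini-Hochberg over 17906 genes. Single members were compared by exact permutation. The fit was checked on simulated libraries drawn independently, with a capped spread and without the library split. That check therefore does not cover nearly alike libraries or the split. The members and lists were chosen with earlier results of these data known. All members were named, every gene of lists of up to 7 genes was eligible, and from longer lists the 3 highest and 3 lowest kept genes, with ADH1 and PDC1. ACBP1, ACBP2 and GPT2, and the marker genes singled out, were described further after their values were seen. For each member the 3 genes most alike are given.

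To check whether library numbers pair the genotypes, each library's deviation from its genotype mean was correlated across genes. Same-numbered libraries gave 0.562, 0.533 and 0.460 (numbers 1, 2 and 4), over the limit of 0.1, but so did number 2 against number 4 (0.514 and 0.536). Alternatives covered the pseudocount, filter, scaling, the block by library number, the library split as a further term, voom, and each library left out. A filter of 1 FPKM in 2 libraries with the split, and averaging of libraries 2 and 4, were added after seeing the data. Python 3.11.15, pandas 2.3.3, SciPy 1.17.1, Biopython 1.88 and matplotlib 3.10.9 were used for count recovery, sequences and figures. Coordinates and sequences are from RefSeq TAIR10.1, where 27998 identifiers were found. AP2/ERF genes were found by a letter pattern in translated coding sequences, revised once so that all 5 members were included. Raw reads were not used here.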

Additional observations from a re-analysis of the deposited data

Results flagged for a closer look

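RAP2.2 was higher in both *hdt1* libraries than in the wild type within libraries 2 and 4 (log2 difference 0.22) and lower within library 1 (-0.23), opposite directions in the 2 sets of libraries. RAP2.12 was lower within libraries 2 and 4 (-0.32) and slightly higher within library 1 (0.03). Library 1 holds 1 sample per genotype, and neither difference between the sets was tested.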

How the results depend on the processing

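A block by library number left the count of members called at 0 and changed no call in any list, with adjusted p-values of 0.167 for HRE1, 0.160 for RAP2.3, 0.375 for RAP2.12 and 0.789 for RAP2.2. With the library split as a further term the count of ERF-VII members called was 1, with voom and the split 1, and with the filter of 2 libraries and the split, an alternative chosen after seeing the data, 1. Among all genes these fits called 1135, 1743 and 826. With libraries 2 and 4 averaged and the split, also chosen after seeing the data, 0 genes were called, on 2 values per genotype. The fits with the split and without averaging called 1, 1 and 1 of the other substrates with a cysteine start. Voom with the split also called 1 PCO gene, 2 partners and 5 low-oxygen genes. Libraries 2 and 4 alone, whose spread is only that between nearly alike libraries, gave 4 members, 4 PCO genes, 2 methionine aminopeptidases, 5 genes of arginylation and ligation, 2 other substrates, 14 partners, 22 low-oxygen genes and 11809 genes in all. Leaving out each library in turn gave 0 to 1 members, 0 to 2 PCO genes, 0 to 1 other substrates, 0 to 1 partners, 0 to 9 low-oxygen genes and 0 to 1994 genes in all. The highest counts came without *hdt1* library 1, and without wild-type library 1 all genes called numbered 1136 and low-oxygen genes 2.

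The sign of RAP2.2 was not stable. Its log2 difference was 0.07 and ran from -0.06 to 0.30 with each library left out (-0.02 without wild-type library 1, -0.06 without *hdt1* library 2, -0.04 without *hdt1* library 4), was -0.01 with libraries 2 and 4 averaged, and -0.23 within library 1. Its difference of FPKM means ran from -6.59 (without *hdt1* library 2) to 87.4 (without *hdt1* library 1), and was -0.397 without *hdt1* library 4. RAP2.12 was 0.03 within library 1. HRE1 ran from 1.19 to 1.98, RAP2.3 from -0.98 to -0.70 and RAP2.12 from -0.31 to -0.13 with each library left out. Over all alternatives the adjusted p of HRE1 ran from 9.61e-08 to 0.882 and that of RAP2.3 from 9.71e-06 to 0.882, lowest in libraries 2 and 4 alone. The cause of these changes was not tested. Depth limits HRE2 in the 4 libraries with at most 2 reads.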
